A study of Mus musculus with 16 samples.

Results

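The 10 genes followed here mark the epithelium of the choroid plexus, and they were measured in whole brain RNA-seq of single mice. They were Ttr, Kl, Sostdc1, Clic6, Kcnj13, Aqp1, Slc4a5, Folr1, Prlr and Otx2, and they were taken by name from the expression table. All 10 were found among the 55404 genes of the table, and all 10 were among the 23244 genes that passed the filter on low values. The 8 Tecpr2 ki/ki mice were homozygous for a knock-in of the L1152fs frameshift in Tecpr2, which encodes a protein of autophagy and lysosome function, and the 8 wt/wt mice were wild-type littermates. All 16 mice were 5 months old and received no treatment. A figure legend of the study gives the mice as males, and its methods describe the C57BL/6J background. The allele was made by CRISPR/Cas9 as a deletion of a single base, with a silent mutation for genotyping. It is present in the germline and so in all cells. Each library came from 1 mouse.

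The choroid plexus is a tuft of secretory epithelium in the brain ventricles that makes most of the cerebrospinal fluid. Its cells carry ion and water transporters, secrete carrier proteins and hormones into the fluid, and take up folate and prolactin from the blood. In whole brain RNA these cells are a small minority, so transcripts restricted to them report both how much plexus is in a sample and how active its cells are. In these bulk samples fewer epithelial cells and less RNA per cell cannot be told apart. Several of the 10 genes, among them Kl, Otx2 and Aqp1, are also expressed at some level outside the choroid plexus.

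The deposited values were normalized between libraries and rounded to whole numbers. They summed to 11964284 to 12252324 per mouse. The spacing of the values gave a depth of 9.23 to 15.4 megareads counted per library (reads in units of 1e6). The targeted gene was checked first. Tecpr2 read 274 to 320 in the ki/ki mice and 928 to 1002 in the wt/wt mice, without overlap, a log2 fold change of -1.68 ± 0.0363 (SE, n = 8 per genotype). All 16 labels fitted this split. In the limma test across all genes, 31 genes (0.133%) had a Benjamini-Hochberg adjusted p under 0.1 between the genotypes, 22 higher (0.0946%) and 9 lower (0.0387%) in ki/ki mice.

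The first question was whether the choroid plexus genes differed between Tecpr2 ki/ki and wt/wt brains. None of the 10 passed the test, beside the 0.133% of all tested genes that did. Their limma adjusted p-values lay between 0.782 and 0.990. At an unadjusted limma p under 0.05, Ttr and Folr1 were both lower in ki/ki mice, 2 of 10 members beside 6.08% of all genes in either direction and 3.01% in the lower direction. None of the 10 was higher at that p, beside 3.07% of all genes. The fold changes of 5 of the 10 were below 0, beside 50.5% of all tested genes. The median log2 fold change of the members was -0.0042, and that of all tested genes was -0.00098. The median size of the log2 fold change, whatever its sign, was 0.07 for the members and 0.06 for all tested genes. No member separated the genotypes without overlap, which 0.086% of all genes did.

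**Figure D1:**
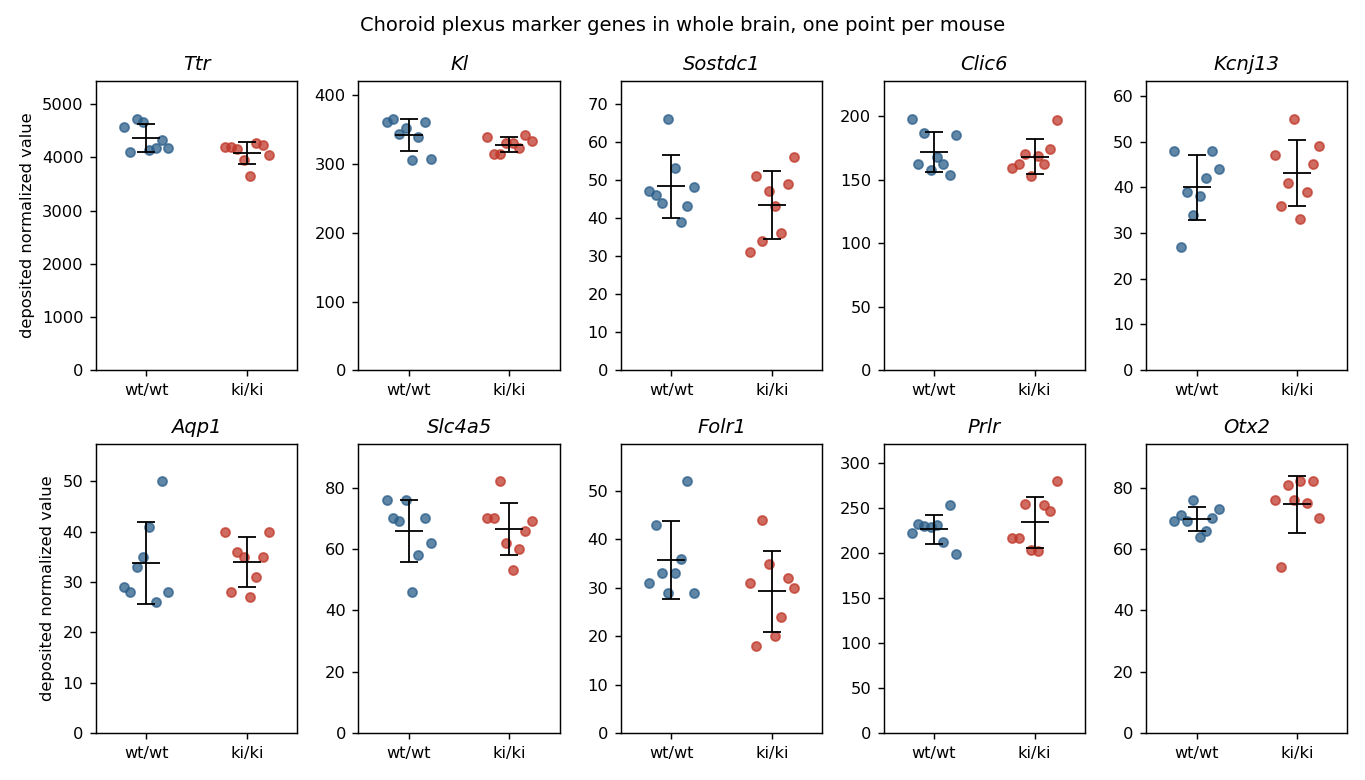
Deposited normalized value (y axis, from 0) of each choroid plexus gene in the 8 wt/wt (blue) and 8 Tecpr2 ki/ki mice (red). Each point is 1 mouse, and bars give mean ± SD. The genotypes overlap in all 10 panels. In those of Ttr, Folr1 and Sostdc1 3 ki/ki points lie below every wt/wt point. In that of Otx2 3 ki/ki points lie above every wt/wt point, and in those of Prlr and Kcnj13 2 do. The share of all genes with such points was not counted.

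Positions are given in the GRCm38 annotation. Ttr (chr18:20665280-20674321, plus strand) encodes transthyretin, the carrier of thyroxine and of retinol-binding protein that the choroid plexus secretes into the cerebrospinal fluid. It was the most abundant member by far. Per kilobase of exon, its mean value was 3562, and the next member, Clic6, reached 43.4. Ttr alone made up 80.4% of the summed values of the 10 genes. In the ki/ki mice it read 3645 at the lowest, 4170.5 at the median and 4276 at the highest. In the wt/wt mice these values were 4099, 4256.5 and 4726. A group of 3 ki/ki mice (3645, 3942 and 4054) lay below every wt/wt mouse, and 4 wt/wt mice (4333, 4580, 4670 and 4726) lay above every ki/ki mouse, while the rest overlapped. The means were 4086 ± 207 in ki/ki and 4364 ± 256 in wt/wt mice (SD, n = 8 each). The log2 fold change was -0.09 ± 0.0395 (SE), with a 95% interval of -0.18 to -0.0099. The limma adjusted p was 0.782, so the difference did not pass the correction over all genes. With any of 4 mice (ki/ki 4 and wt/wt 1, 3, 4) left out, Ttr was no longer at an unadjusted limma p under 0.05. A two-sided exact permutation test of Ttr alone gave p = 0.0348, where the smallest possible p with 8 against 8 mice is 0.000155.

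Kl (chr5:150952607-150993817, plus strand) encodes klotho, a co-receptor for fibroblast growth factor 23 that is also shed into the cerebrospinal fluid. Its values were 314, 330 and 343 (lowest, median and highest) in ki/ki mice and 306, 348.5 and 366 in wt/wt mice. All 8 ki/ki mice were below the wt/wt median, and 5 wt/wt mice were above every ki/ki mouse, but the other wt/wt mice included the lowest values of the set, 306 and 307. The log2 fold change was -0.06 (95% interval -0.15 to 0.03, limma adjusted p = 0.907). Sostdc1 (chr12:36314139-36318452, plus strand), a secreted antagonist of BMP and Wnt signalling, read 31, 45 and 56 in ki/ki and 39, 46.5 and 66 in wt/wt mice. Of the ki/ki mice, 3 were below all wt/wt mice, and 1 wt/wt mouse was above all ki/ki mice. Its log2 fold change was -0.16 (95% interval -0.41 to 0.09, limma adjusted p = 0.902).

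Of the channels and transporters, none had an unadjusted limma p under 0.05. Clic6 (chr16:92485736-92541243, plus strand), an intracellular chloride channel family member, read 153, 165.5 and 197 (lowest, median and highest) in ki/ki mice and 154, 165 and 198 in wt/wt mice. The genotypes thus covered the same range. Kcnj13 (chr1:87386363-87394729, minus strand), which encodes the inward rectifier potassium channel Kir7.1, read 33, 43 and 55 in ki/ki and 27, 40.5 and 48 in wt/wt mice. In the GENCODE annotation Kcnj13 lies within Gigyf2 on the opposite strand, and 49.1% of its exon bases are shared. Gigyf2 had a mean value of 1231, and the sources used here do not say whether reads were counted by strand, so the Kcnj13 values are uncertain. Across the 16 mice Kcnj13 and Gigyf2 had a Pearson r of -0.202. Aqp1 (chr6:55336432-55348555, plus strand), the water channel of the apical membrane, read 27, 35 and 40 in ki/ki and 26, 31 and 50 in wt/wt mice. Slc4a5 (chr6:83219828-83304945, plus strand), a sodium bicarbonate cotransporter of the same membrane, read 53, 67.5 and 82 in ki/ki and 46, 69.5 and 76 in wt/wt mice. The log2 fold changes of these 4 genes were -0.03, 0.11, 0.03 and 0.02 in the same order, each with a 95% interval that included 0. For Clic6 the interval ran from 0.898 to 1.07 on the fold scale. For Aqp1, a low gene, it ran from 0.843 to 1.23.

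Of the receptors, Folr1 had the largest fitted difference of the set. It lies at chr7:101858331-101870788 on the minus strand and encodes folate receptor alpha, through which the epithelium moves folate into the cerebrospinal fluid. It read 18, 30.5 and 44 (lowest, median and highest) in ki/ki mice and 29, 33 and 52 in wt/wt mice. The lowest 3 ki/ki mice (18, 20 and 24) were below all wt/wt mice, and 1 wt/wt mouse (52) was above all ki/ki mice. The log2 fold change was -0.31 ± 0.151 (SE), with a 95% interval of -0.61 to -0.0040. The limma adjusted p was 0.82. The exact permutation test of Folr1 alone gave p = 0.11, so this gene did not pass at an unadjusted p under 0.05 by that test. Prlr (chr15:10177238-10349180, plus strand), the prolactin receptor, read 202, 231 and 279 in ki/ki and 199, 229 and 253 in wt/wt mice. Of the ki/ki mice, 2 were above all wt/wt mice and 1 wt/wt mouse was below all ki/ki mice. Otx2 (chr14:48657677-48673819, minus strand), the homeobox transcription factor that maintains the choroid plexus, read 54, 76 and 82 in ki/ki and 64, 69.5 and 76 in wt/wt mice. Among ki/ki mice, 3 were above every wt/wt mouse and 1, the mouse at 54, was below every wt/wt mouse. The log2 fold changes of Prlr and Otx2 were 0.04 and 0.08, with limma adjusted p-values of 0.958 and 0.935.

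**Figure D2:**
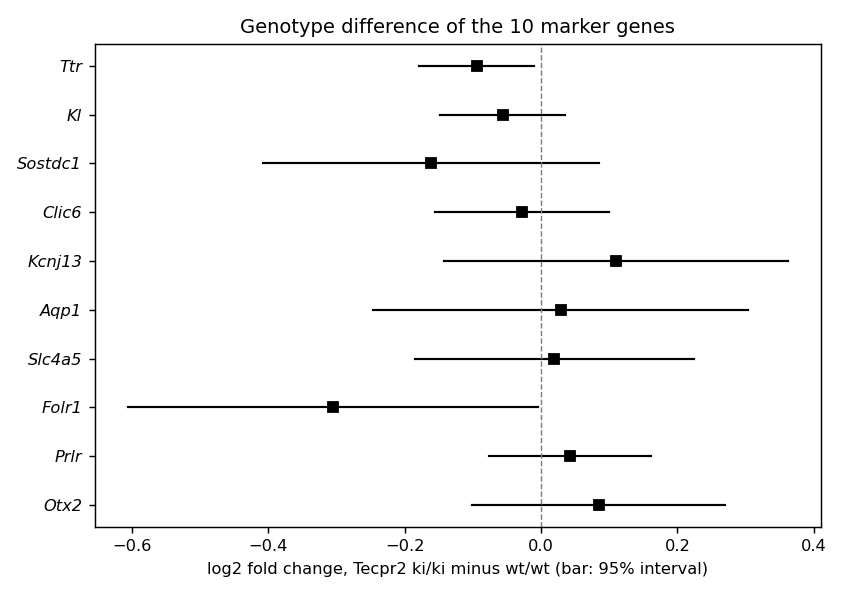
Log2 fold change (x axis, Tecpr2 ki/ki minus wt/wt, on log2(value + 1)) of the 10 genes, with 95% intervals from the limma fit. The intervals of Ttr (-0.18 to -0.0099) and Folr1 (-0.61 to -0.0040) stop short of 0 before correction, and the other 8 include it.

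The intervals also state what these libraries could have shown. A Ttr level in ki/ki mice below 0.883 of the wt/wt level lay outside its interval, and for Kl the corresponding bound was 0.903. For Folr1 the interval reached down to 0.657. The width followed the abundance of the gene. Folr1, Aqp1 and Kcnj13 had means of 32.5, 33.9 and 41.6, and Ttr had a mean of 4225.

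The second question was how the genes varied from mouse to mouse. The variance between mice of 1 genotype was divided by the variance that counting reads alone would give at the estimated depth. Ttr stood at 13.1 times counting variance, the 99.5th percentile of all tested genes. Its coefficient of variation within a genotype was 5.51%, where counting alone would give 1.52%. The 2571 genes with a mean value of at least 1000 had a median coefficient of variation of 3.32%, and Ttr was at their 95.2th percentile. Prlr followed at 2.31 times counting variance, Folr1 at 2.12 and Sostdc1 at 1.63. The other 6 genes lay between 0.706 (Otx2) and 1.36 (Aqp1). At or under 1.5 times counting variance were 6 of the 10 members and 59.2% of all tested genes. The members' median was 1.36, and so was that of all tested genes. The members as a group thus had the same ratio as all tested genes.

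**Figure D3:**
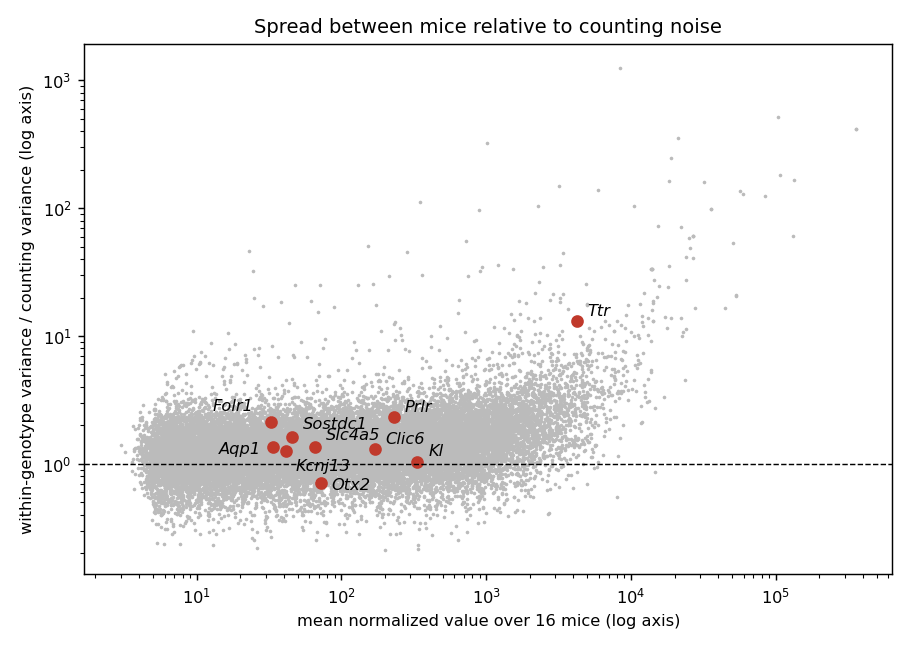
Variance between mice of the same genotype divided by counting variance (y axis, log) against the mean value over 16 mice (x axis, log), for all tested genes (grey) and the 10 choroid plexus genes (red). The dashed line marks counting variance alone. Ttr lies at 13.1 and the other 9 genes between 0.706 and 2.31.

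It was then asked whether the genes rose and fell together across single mice, as transcripts of 1 cell type would if the amount of that tissue in the samples set their level. Each gene was expressed as its deviation from its own mean on the log2 scale, and the deviations were averaged over the 10 genes in each mouse. The averages ran from -0.182 to 0.122 in ki/ki mice and from -0.0789 to 0.165 in wt/wt mice, with medians of 0.0089 and 0.0039. In ki/ki mouse 7, 10 of 10 genes were above their mean. In ki/ki mouse 5, which had the lowest Ttr, 1 of 10 was. In the other mice the number above the mean was between 2 and 7.

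Of the 45 pairs of genes, 35 had a positive and 10 a negative Pearson r over the 16 mice. The shares over pairs of all genes were not counted, so these numbers of pairs are descriptions. The median r was 0.133, and the range was -0.271 to 0.557. One pair, Prlr and Aqp1, had an r above 0.5 (r = 0.557, rho = 0.583), a number that rose to between 2 and 4 when any of 11 mice was left out. Its permutation p was 0.0252, which was 0.409 after Benjamini-Hochberg adjustment over the 80 relations computed (these 45 and the 35 with Ttr described further on). Its r was 0.464 without the 2 mice farthest from the median of Prlr. None of the 45 pairs had an adjusted permutation p under 0.05. Next came Folr1 with Aqp1 (r = 0.495) and Ttr with Slc4a5 (r = 0.493). Without the 2 mice farthest from the median of the first gene, these values were 0.169 and 0.372. Leaving out such mice narrows the range of that gene, so the drop cannot show what the relation rested on. Within genotypes Folr1 and Aqp1 had r = 0.775 in ki/ki and 0.461 in wt/wt mice.

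**Figure D4:**
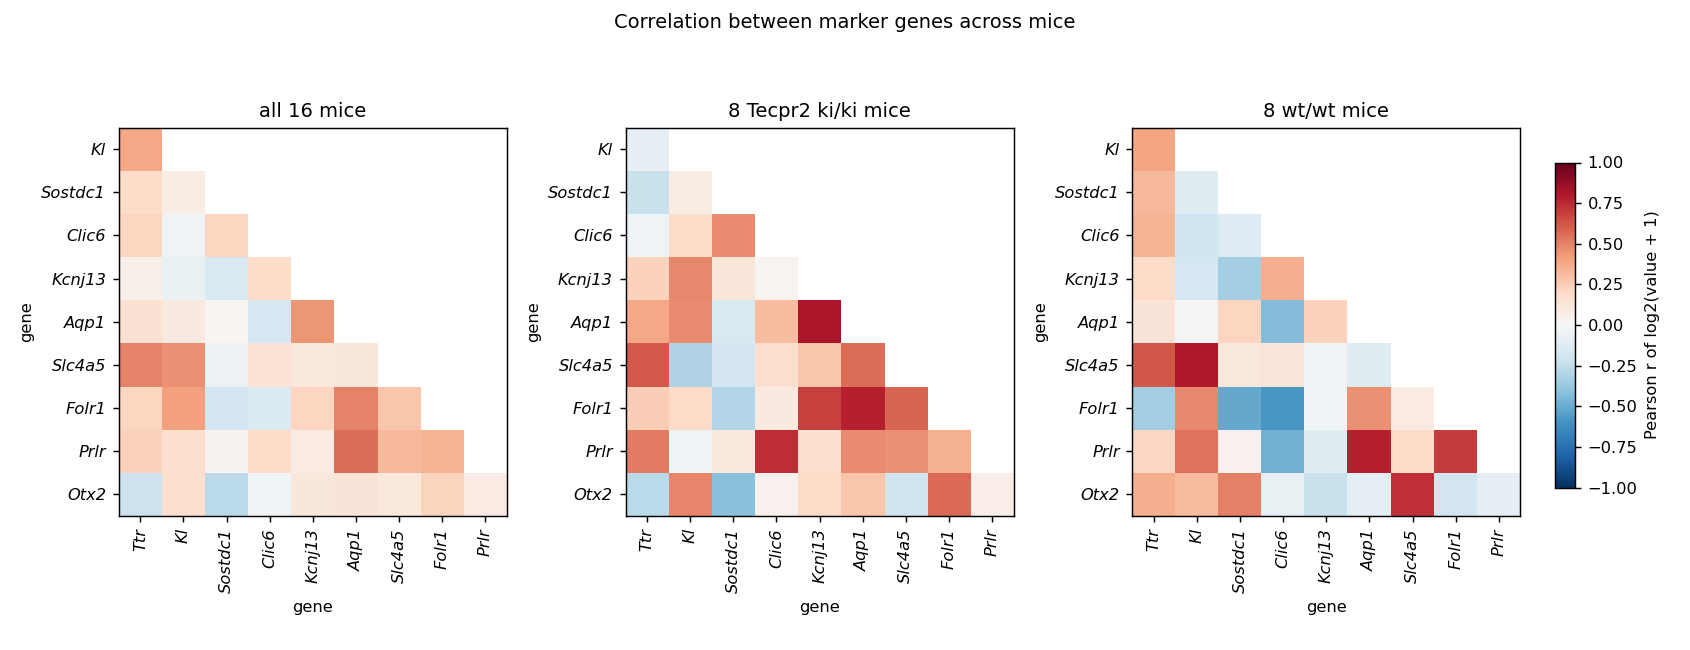
Pearson r of log2(value + 1) between each pair of the 10 genes (rows and columns), for all 16 mice, for the 8 Tecpr2 ki/ki and for the 8 wt/wt mice. Red is positive and blue negative. Most cells of the left panel are pale, 28 of the 45 pairs change sign between the other panels, and the cell of Ttr with Slc4a5 is red in all 3. The share of all gene pairs that change sign was not counted.

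The pairs were also described within genotypes, again without the shares over pairs of all genes. An r above 0.5 was found for 9 pairs in ki/ki mice and for 7 pairs in wt/wt mice, and 1 pair was in both sets. This was Ttr with Slc4a5, with r = 0.614 in ki/ki and 0.62 in wt/wt mice (n = 8 each). The sign of r was opposite in the 2 genotypes for 28 of the 45 pairs (62.2%), and 16 pairs were positive in both. Kcnj13 and Aqp1 had r = 0.819 in ki/ki and 0.228 in wt/wt mice. Kl and Slc4a5 had r = -0.301 in ki/ki and 0.804 in wt/wt mice. With 8 mice per genotype these differences were not tested. Otx2 and Ttr had r = -0.213 over all mice.

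The promoters of Prlr and Aqp1 are shown because these genes formed the pair with the highest r. They are the 250 bases before a RefSeq transcription start in the GRCm38.p6 assembly, on the plus strand, chr15:10176988-10177237 for Prlr and chr6:55336049-55336298 for Aqp1. Prlr has more than 1 RefSeq start, and the window shown is that of the most upstream. The GENCODE start of Aqp1 lies further downstream, at 55336432.
Prlr: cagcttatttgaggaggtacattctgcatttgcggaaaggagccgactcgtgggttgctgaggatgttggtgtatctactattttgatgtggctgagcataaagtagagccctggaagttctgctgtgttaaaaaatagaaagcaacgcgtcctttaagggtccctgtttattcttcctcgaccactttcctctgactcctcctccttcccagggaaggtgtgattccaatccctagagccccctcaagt
Aqp1: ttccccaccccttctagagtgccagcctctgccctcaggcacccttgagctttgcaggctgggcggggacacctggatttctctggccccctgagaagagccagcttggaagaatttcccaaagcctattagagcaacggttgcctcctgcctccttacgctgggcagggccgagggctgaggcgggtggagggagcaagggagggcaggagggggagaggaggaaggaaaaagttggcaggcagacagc
The letters TAATCC, a core bound by OTX family proteins, were searched on both strands. They would stand in capitals and occur in neither of these windows. A window was held for 6 of the 10 members (11 windows in all, several genes having more than 1 start), and 1 of the 11 had a match. That window belonged to Otx2 itself, chr14:48665110-48665359 on the minus strand, with GGATTA, the same letters on the other strand, 211 bases before the start. All 250 bases of this Otx2 window lie within GENCODE exons. Of all 32851 windows of this length, 6.25% had a match.

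Ttr, with the best counting precision, was then compared with the other genes 1 by 1. Among the members its r was 0.493 with Slc4a5, 0.384 with Kl, 0.231 with Prlr and 0.212 with both Folr1 and Clic6. It was 0.186 with Sostdc1, 0.156 with Aqp1 and 0.0537 with Kcnj13. As low genes blur a correlation through counting noise, the other 9 members were also summed per mouse. The sums ran from 949 to 1123 in ki/ki mice and from 975 to 1101 in wt/wt mice, with means of 1021 ± 59.0 and 1033 ± 49.1 (SD, n = 8 each). As a description, their r with Ttr was 0.431 over the 16 mice, and 0.289 without the 2 mice farthest from the Ttr median, ki/ki mouse 5 and wt/wt mouse 3. Kl and Prlr dominate this sum. Ttr had an r of -0.0737 with the depth of the library and of 0.461 with the total of its values, with permutation p-values of 0.784 and 0.0719.

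A list of other choroid plexus genes held 26 genes known from the choroid plexus, of which 25 were found and tested. None had a limma adjusted p under 0.1. At an unadjusted limma p under 0.05, Enpp2 was lower and Calml4 higher in ki/ki mice, 2 of 25 beside 6.08% of all tested genes. Of the 25 fold changes, 14 were below 0, beside 50.5% of all tested genes, and their median was -0.04. Another list held 10 genes of cerebrospinal fluid secretion, the sodium pump, carbonic anhydrases and ion exchangers, most of which other brain cells express too. None had a limma adjusted p under 0.1 there either. At an unadjusted limma p under 0.05, Atp1b1 and Car12 were lower and Car14 higher in ki/ki mice, 3 of 10 beside 6.08% of all tested genes. Atp1b1, the beta subunit of the sodium pump, had means of 9103 in ki/ki and 9440 in wt/wt mice and the smallest adjusted p of both lists, 0.231. These genes were named after their values were seen.

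The median r with Ttr was 0.243 in the list of 25 genes, 0.339 in the list of 10 and 0.212 for the other 9 members. It was 0.012 over the 17195 tested genes with a mean value of at least 20. The 4 genes of both lists with the highest r were Enpp2 (0.76), Slc4a2 (0.75), Mfrp (0.561) and Ace (0.545). Enpp2 encodes autotaxin, a secreted enzyme that makes lysophosphatidic acid and is abundant in choroid plexus and in oligodendrocytes. It read 4312 to 4743 in ki/ki and 4469 to 5091 in wt/wt mice, close to the level of Ttr. Slc4a2 encodes the anion exchanger AE2 of the basolateral membrane and read 393 to 468 in ki/ki and 403 to 474 in wt/wt mice. ki/ki mouse 5, lowest for Ttr, was also lowest for Slc4a2, and wt/wt mouse 3, highest for Ttr, was highest for Enpp2.

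Adjusted over the 80 relations, the permutation p was 0.036 for Enpp2 and 0.0208 for Slc4a2, the only 2 under 0.05. The plan held correlation tests among the members only, so these 2 tests were not planned. Spearman's rho was 0.812 for Enpp2 and 0.815 for Slc4a2. Within genotypes r was 0.602 in ki/ki and 0.777 in wt/wt mice for Enpp2. For Slc4a2 it was 0.855 in ki/ki and 0.796 in wt/wt mice. Without ki/ki mouse 5 and wt/wt mouse 3, r was 0.66 for Enpp2 and 0.647 for Slc4a2, with an adjusted permutation p of 0.201 for both. The relation with Slc4a2 was no longer called without ki/ki mouse 5 (r = 0.653, adjusted permutation p = 0.242). Nor was it without wt/wt mouse 2 (adjusted permutation p = 0.0536). The relation with Enpp2 was no longer called without wt/wt mouse 3 (r = 0.673, adjusted permutation p = 0.21), and 6 other mice had the same effect when left out singly, with adjusted permutation p-values of 0.0512 to 0.104.

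**Figure D5:**
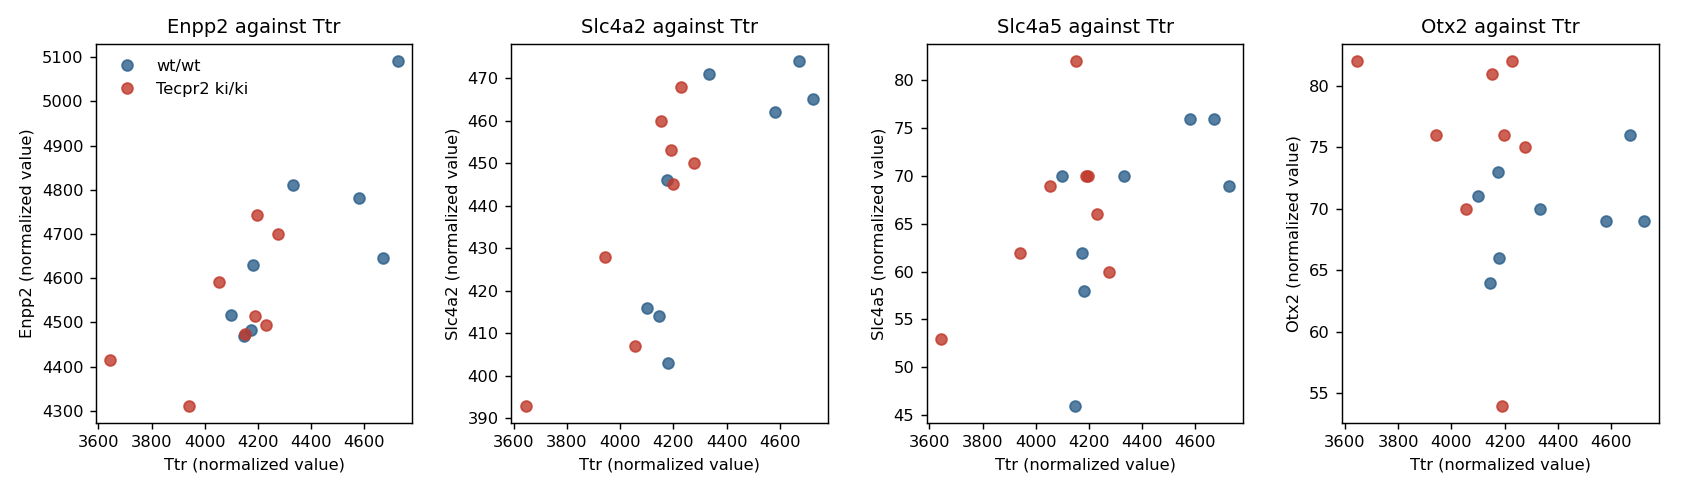
Normalized value of Enpp2, Slc4a2, Slc4a5 and Otx2 (y axes) against that of Ttr (x axis) in the 8 wt/wt (blue) and 8 Tecpr2 ki/ki mice (red), 1 point per mouse and axes not starting at 0. Enpp2 and Slc4a2 rise with Ttr (r = 0.76 and 0.75), Slc4a5 less so (0.493), and Otx2 does not (-0.213).

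The 24 other choroid plexus genes without Enpp2, summed per mouse, ran from 3102 to 3245 in ki/ki and from 3058 to 3378 in wt/wt mice. As a description, their r with Ttr was 0.665 over 16 mice, 0.349 in ki/ki and 0.927 in wt/wt mice. The low value in ki/ki mice and the high one in wt/wt mice were not tested against each other. Htr2c had the highest mean value of these 24 genes (816), with an r with Ttr of -0.368 in ki/ki and 0.871 in wt/wt mice. How far it set the r of the sum was not tested. An r above 0.5 with Ttr was found for 4 of the 25 other choroid plexus genes, 2 of the 10 secretion genes and none of the other 9 members, beside 498 (2.90%) of all genes with a mean value of at least 20. Enpp2 ranked 13 and Slc4a2 16 by r among the non-member genes. The 10 non-member genes most like Ttr were Ndufa4, a mitochondrial cytochrome oxidase subunit (r = 0.842), Apbb3 (0.841), Neurl4 (0.796), Arhgap42 (0.791), Fyn, a Src family kinase (0.783), Bcas1, a gene of early myelinating oligodendrocytes (0.778), Lrfn4 (0.773), Syde1 (0.765), Gm6180 (0.763) and Tbl1xr1 (0.762). None of them was in any list used here, and 9 of the 10 had an r above 0.5 in both genotypes. They were picked by r over these same 16 mice, so high values within the genotypes are partly built in.

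Markers of other cells were read beside Ttr, as descriptions over the same 16 mice. The median r with Ttr was 0.127 for 10 ependymal genes, 0.126 for 12 genes of meningeal fibroblasts, 0.159 for 9 endothelial and 0.128 for 6 mural genes. It was -0.069 for 5 erythroid genes. It was 0.377 for 5 neuronal genes, and -0.272 for 4 astrocyte and -0.415 for 4 microglial genes. The 2 genes of each list nearest to Ttr were Ak7 (0.583) and Dnah11 (0.37) for ependyma, Bgn (0.565) and Igf2 (0.422) for meninges, Itm2a (0.274) and Kdr (0.25) for endothelium, and Rgs5 (0.541) and Acta2 (0.351) for mural cells. For neurons they were Snap25 (0.544) and Rbfox3 (0.387), and the nearest oligodendrocyte gene was Mbp (0.451). For astrocytes they were Slc1a3 (0.272) and Gja1 (-0.238), and for microglia Csf1r (0.153) and Cx3cr1 (-0.407). For erythroid cells they were Hbb-bt (0.24) and Alas2 (0.0662).

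The limma test called 2 genes of these lists between the genotypes, beside 0.133% of all tested genes. Aqp4, the astrocyte water channel, read 2195 to 2287 in ki/ki and 1904 to 2114 in wt/wt mice, without overlap (log2 fold change 0.14, limma adjusted p = 3.7e-05). Gad1, an enzyme of GABA synthesis, was lower in ki/ki mice (log2 fold change -0.09, limma adjusted p = 0.0681). None of the 4 microglial genes was called. At an unadjusted limma p under 0.05, 2 were higher in ki/ki mice, beside 3.07% of all tested genes. All 4 had a log2 fold change above 0, where 50.5% of all tested genes were below 0. These genes were described after their values were seen. The summed levels of the ependymal and meningeal lists overlapped between genotypes. The ependymal sum was 570 to 670 in ki/ki and 567 to 658 in wt/wt mice, and the meningeal sum was 1401 to 1706 and 1390 to 1585. The summed choroid plexus members were 4604 to 5301 in ki/ki and 5127 to 5774 in wt/wt mice, mostly Ttr. Glands that can come away with the brain were at the edge of detection. Of 6 pituitary genes, 3 (Prl, Gh and Lhb) were listed at 0 in all mice, the pituitary sum never passed 22 and the pineal sum never passed 36. The tested genes of these lists were Pomc (r = -0.331 with Ttr), Aanat (0.121) and Sag (-0.186). The part of the other cells' markers in the relations with Ttr was not tested.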

How the data were processed

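RNA of whole brain was sequenced from 8 Tecpr2 ki/ki and 8 wt/wt mice. Per the labels and the study's methods, the authors made ribosomal RNA-depleted stranded libraries, trimmed reads with Trim Galore 0.6.10 and cutadapt 3.4, aligned them with STAR 2.7.10b to GRCm39, counted reads per gene and used DESeq2 1.40.2. The deposited values are whole numbers with near-equal totals and are treated as a score, that is, normalized counts the authors rounded. The normalization method is not given in the sources used here, and raw counts were not restored. The 16 tables of single mice held the same values as the series table. Depth was estimated from the spacing of the rounded values in each library, where some whole numbers are missed or doubled, and intervals cover these libraries only.

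Genes with a sum above 16 and a value above 5 in at least 4 mice of a genotype were tested (23244 of 55404, of which 52017 had a symbol). The main test was limma 3.58.1 (R 4.3.3, trend and robust) on log2(value + 1), with genotype as the only term and Benjamini-Hochberg adjustment over all tested genes at 0.1. Fold changes are on the log2(value + 1) scale. In data simulated for this comparison, 200 of 200 changed genes were called among 23244, with 17 false calls. That recovery holds only for the change size, abundance and spread set in the simulation. It does not show that differences as small as those of the members would be called. Single values were tested by exact permutation over 12870 splits, and correlations by 100000 permutations, two-sided. Positions and overlaps came from GENCODE for GRCm38 and promoters from RefSeq, which is another build than that of the alignment.

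The 10 genes and all lists were chosen with earlier results of these data known. The genes named were Tecpr2, the 10 members, the 4 genes of the other choroid plexus and secretion lists with the highest r with Ttr where none was called, the 10 non-member genes with a mean value of at least 20 most like Ttr, and the 2 genes of each other cell list with the highest r with Ttr. One gene of the oligodendrocyte list and the summary of that list are not reported here. Alternatives were pseudocount 0.1, no filter on low values, a replicate block, a variance estimate that is not robust, scaling to equal totals, leaving out each mouse and, for correlations, genotype deviations, ranks and leaving out 2 mice. The labels say nothing of how replicates were drawn beyond 1 library per mouse.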

Additional observations from a re-analysis of the deposited data

Results flagged for a closer look

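Among 25 named genes in 2 genotypes (50 groups of 8 mice), 2 groups had a mouse set apart from the rest by more than 0.526 of the group's range. Chance alone flags about 1 group in 20. Otx2 read 54 in ki/ki mouse 2, where the other 7 ki/ki mice read 70 to 82. Arhgap42, one of the 10 genes most like Ttr, read 277 in wt/wt mouse 3, where the other 7 wt/wt mice read 237 to 255. That mouse also had the highest Ttr value, 4726, and Arhgap42 was picked for its r with Ttr over the same mice.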

How the results depend on the processing

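No choroid plexus member and none of the 25 other choroid plexus genes was called by limma under any of the 21 alternatives. Over 210 fits of single members the smallest limma adjusted p was 0.456, for Ttr. Ttr stayed lower in ki/ki mice in all 21 alternatives, with an unadjusted p under 0.05 in 17, and Folr1 had one in 12. The number of members at an unadjusted p under 0.05 was 1 with no filter on low values, with a variance that is not robust and with scaling to equal totals, and 1 to 2 when single mice were left out, being 1 in the absence of any of ki/ki 2, 4, 5, 6 and wt/wt 1, 2, 3, 4, 6, 7. The genes called fell from 31 to 20 with no filter, where more genes were tested, and were 25 to 40 without single mice. The replicate numbers gave no clear pairing of the mice (r of same-numbered deviations -0.0488 to 0.15, 1 of 8 above 0.1). In 2 of the 8 pairs the same-numbered mice were each other's best match, so a shared replicate effect is not excluded. The replicate block gave 46 called genes, no member among them. The members' median log2 fold change was -0.04 to 0.02 without single mice, whose signs varied. Those fits gave Clic6 -0.0608 to 0.0019, Aqp1 -0.0188 to 0.112 and Slc4a5 -0.0509 to 0.064.

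Pairs of members with r above 0.5 numbered 2 with equal totals, 4 in deviations from genotype means and 1 to 4 without single mice, with 4 in the absence of ki/ki 3, wt/wt 2 or wt/wt 5, and 2 or 3 in that of ki/ki 1, 2, 6, 8 and wt/wt 1, 3, 4, 6. None had an adjusted permutation p under 0.05 in these settings. The r of Folr1 with Ttr was -0.0132 in deviations, -0.031 by rank and -0.114 without the 2 mice farthest from the Ttr median. In that last setting Kcnj13 gave -0.164, Otx2 0.045 and Aqp1 -0.025, and Sostdc1 gave -0.0353 by rank. Without single mice r was -0.0839 to 0.274 for Folr1, -0.191 to 0.207 for Kcnj13, -0.0586 to 0.252 for Sostdc1 and -0.0414 to 0.246 for Aqp1. The tests of Enpp2 and Slc4a2 with Ttr were not planned, and their alternatives were added after seeing the data. The r of Enpp2 with Ttr lost its call with equal totals (0.729), in deviations (0.704) and without the 2 mice (0.66). This r also lost it in 7 of 16 fits without 1 mouse (0.673 to 0.813), those lacking 1 of ki/ki 2, 3, 4, 5 and wt/wt 1, 2, 3. That of Slc4a2 lost it without the 2 mice (0.647) and in 2 of 16 fits without 1 mouse (0.653 to 0.796), ki/ki mouse 5 and wt/wt mouse 2. The cause was not tested. For members near a value of 40, counting limits what 8 mice can show. The same holds for correlations of the 6 members at or under 1.5 times counting variance.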
